A study of Mus musculus with 13 samples.

Results

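Complement is a set of secreted proteins and cell-surface receptors, and 7 of its genes are described here in mouse quadriceps: the proteases C1ra and C1s1, the components C4b, C2 and C3, factor B (Cfb) and the C1 inhibitor (Serping1). They were chosen by name, as components that the connective tissue cells of muscle are known to make, with earlier results of these data known. All 7 were held among the 24015 genes of the table, 6 of them under the name they were listed by and C1s under C1s1, for which RefSeq gives C1s as a synonym. Whole quadriceps of C57BL/6 mice was lysed and its RNA sequenced in 13 libraries. The mice received daily intraperitoneal injections for 4 weeks of either SW033291 at 5 mg/kg or its vehicle, a mix of ethanol, Cremophor EL and dextrose in water. SW033291 inhibits 15-PGDH, the enzyme that degrades prostaglandin E2. The groups were aged mice (labelled as older than 24 months) given SW033291 in batch 2 (3 libraries: replicates 1, 4 and 6), aged mice given vehicle in batch 2 (3 libraries: 2, 3 and 8), aged mice given vehicle in batch 1 (3 libraries: 2, 3 and 4) and young mice (3 months) given vehicle in batch 1 (4 libraries: 1, 3, 4 and 5). Young and treated muscle each exist in 1 batch, and the labels do not say whether each library is from a separate mouse, so p-values measure only the spread between these libraries.

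Complement is started in the classical pathway by C1q, which binds antibody complexes and dying cells and activates the proteases C1r and C1s. C1s cleaves C4 and C2 into the enzyme that cleaves C3, while in the alternative pathway factor D cleaves factor B to form a second enzyme of that kind. Cleaved C3 tags its target for phagocytes and leads on to the terminal pore, and the C1 inhibitor inactivates C1r and C1s. The liver makes most of the complement in plasma, macrophages make C1q, adipocytes make factor D (Cfd, adipsin), and fibroblast-like cells of many tissues make C1r, C1s, C3 and the C1 inhibitor. The data are of whole tissue: they do not say which cells held these transcripts, and fewer cells of a type and less RNA per cell cannot be told apart.

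The genes lie in 4 places in the reference annotation (GRCm38, all protein-coding), which is not the build mm9 that the submitters' processing notes name. Serping1 lies at chr2:84765387-84775444 on the minus strand. C1ra (chr6:124512405-124523443, plus strand) and C1s1 (chr6:124530345-124542359, minus strand) face each other tail to tail with 6901 bases between their ends. C4b lies at chr17:34728380-34743882 and C3 at chr17:57203970-57228136, both on the minus strand. Cfb (chr17:34856374-34862518) and C2 (chr17:34862604-34898265) follow each other on the minus strand, 85 bases apart, and the annotated gene Gm20547 overlaps both. Zbtb12 overlaps C2 and the antisense gene Gm16567 overlaps C1s1, and use of strand in the counting is not stated in the sources used here, so reads at these overlaps may have been split and values of Cfb, C2 and C1s1 are uncertain to that extent. The near copies C4a, C1rb and C1s2 reached at most 0.13, 0.17 and 0.30 TPM in any library, and reads shared with them could have been split as well.

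Promoters (RefSeq, GRCm38.p6, 250 bases before to 50 after the start) were matched by symbol for 3 of the 7 genes. Those of C1ra, C1s1 and C3 are shown because no window was held for C2, C4b, Cfb and Serping1. Capitals mark matches, on either strand, to the C/EBP letters TTGCNNAA, the STAT (GAS) letters TTCNNNGAA and the TATA box letters TATAAA.
C1ra, chr6:124512371-124512670, plus strand: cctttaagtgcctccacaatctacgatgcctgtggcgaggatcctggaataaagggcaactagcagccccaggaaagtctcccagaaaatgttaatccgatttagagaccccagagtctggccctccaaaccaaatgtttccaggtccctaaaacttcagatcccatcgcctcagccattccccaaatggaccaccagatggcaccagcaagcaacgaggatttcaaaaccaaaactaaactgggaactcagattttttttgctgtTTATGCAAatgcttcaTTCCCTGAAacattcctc
C1s1, chr6:124542310-124542609, minus strand, the upstream of its 2 starts: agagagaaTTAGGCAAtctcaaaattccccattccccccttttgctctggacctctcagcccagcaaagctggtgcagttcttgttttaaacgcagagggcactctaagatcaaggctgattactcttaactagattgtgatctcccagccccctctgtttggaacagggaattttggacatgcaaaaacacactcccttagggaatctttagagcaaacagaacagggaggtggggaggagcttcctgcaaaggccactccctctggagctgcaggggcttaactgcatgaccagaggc
C3, chr17:57228087-57228386, minus strand: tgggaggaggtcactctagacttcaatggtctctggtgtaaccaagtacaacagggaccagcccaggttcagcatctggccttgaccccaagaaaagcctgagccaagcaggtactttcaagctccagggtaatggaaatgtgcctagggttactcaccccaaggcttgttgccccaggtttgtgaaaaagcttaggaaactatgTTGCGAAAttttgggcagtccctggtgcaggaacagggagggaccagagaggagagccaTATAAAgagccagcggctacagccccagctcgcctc
The C/EBP letters stood in all 3 windows printed, at bases 17 to 24 in C1ra, counted from 1 at the start, -242 to -235 before it in C1s1 and -45 to -38 before it in C3. The window of the other start of C1s1 (chr6:124542272-124542571, not printed) held none of the 3 motifs. C1ra alone of the 3 held the STAT letters, at bases 33 to 41, and C3 alone the TATA letters, at bases 15 to 20. Positions in C1ra count from its RefSeq start, base 124512621. The annotation given above starts that gene at base 124512405, so most of the C1ra window lies inside the gene as annotated there. Of 32851 promoter windows of this length, 10.8% held the C/EBP letters, 8.30% the STAT letters and 13.6% the TATA letters. For the CCAAT box, GC box, IRF and NF-kB letters the shares were 37.4%, 35.7%, 3.44% and 1.63%. A match is a description of the letters and not a binding site.

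Values are TPM, transcript levels that the authors scaled to length and to the same total in every library, and they carry no read depth. Between 10710 and 11687 genes reached 1 TPM in a library. Muscle fibre transcripts such as Acta1 and Tnnt3 were abundant in all libraries. The 6 fibre markers summed to 108752 TPM in aged vehicle batch 1 replicate 4 and to 138081 TPM or more elsewhere. Acta1 was lowest in that library, at 24221 TPM, while Tnnt3 was at 41118 TPM, within the range of the others. Aged vehicle batch 1 replicate 4 stood apart: its 8 hepatocyte markers summed to 203 TPM (Alb alone 107 TPM), against at most 2.27 TPM in any of the other 12 libraries, where 4 of these markers were at 0. Its 7 neutrophil markers summed to 1710 TPM, against 740 TPM in aged vehicle batch 2 replicate 2, 220 TPM in SW033291 replicate 4 and at most 13.8 TPM elsewhere. The 7 adipocyte markers summed to 3554 TPM in SW033291 replicate 1 and to 4482 and 3943 TPM in young replicates 1 and 3, against 1103 to 2248 TPM in the other 10 libraries. Values without these libraries are given beside the comparisons they enter.

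The 2 proteases of C1 were steadily present. C1ra stood at 8.39, 8.96 and 5.56 TPM in aged SW033291 muscle, at 10.5, 9.40 and 9.24 TPM in aged vehicle muscle of batch 2, at 4.80, 9.34 and 6.48 TPM in aged vehicle muscle of batch 1 and at 15.35, 13.65, 8.39 and 8.91 TPM in young muscle, in the order of the replicate numbers. Young replicates 1 and 3 were the highest of the 13 libraries for C1ra, and the other 2 young libraries lay within the range of aged muscle. C1s1 stood at 20.1, 17.6 and 15.3 TPM in SW033291 muscle, at 25.1, 20.5 and 22.2 TPM in aged vehicle muscle of batch 2, at 15.4, 23.1 and 19.6 TPM in aged vehicle muscle of batch 1 and at 27.3, 29.0, 20.1 and 21.2 TPM in young muscle. C1s1 varied least of the 7, with the highest library 1.89 times the lowest.

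The components that C1s acts on had lower means and were more uneven, though C4b lay close to C1ra (8.39 and 9.15 TPM over 13 libraries). C4b, whose cleaved product anchors the classical convertase, stood at 12.7, 6.62 and 6.73 TPM in SW033291 muscle, at 8.01, 4.65 and 16.5 TPM in aged vehicle muscle of batch 2, at 5.17, 7.37 and 4.97 TPM in aged vehicle muscle of batch 1 and at 14.7, 10.2, 4.40 and 7.07 TPM in young muscle. Aged vehicle batch 2 replicate 8 was the highest library for C4b and young replicate 4 the lowest. C2, the catalytic part of that convertase, stood at 6.25, 2.40 and 1.27 TPM in SW033291 muscle, at 2.07, 0.69 and 2.60 TPM in aged vehicle muscle of batch 2, at 0.80, 2.60 and 1.00 TPM in aged vehicle muscle of batch 1 and at 5.16, 3.92, 1.46 and 2.61 TPM in young muscle. C2 was the lowest and widest of the 7: its highest library, SW033291 replicate 1, was 9.06 times its lowest, and 11 of 13 libraries reached 1 TPM.

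C3, the protein on which the pathways converge, stood at 31.2, 32.2 and 19.6 TPM in SW033291 muscle, at 27.8, 23.2 and 53.4 TPM in aged vehicle muscle of batch 2, at 14.4, 20.9 and 19.6 TPM in aged vehicle muscle of batch 1 and at 59.7, 38.9, 19.3 and 23.3 TPM in young muscle. Young replicate 1 and aged vehicle batch 2 replicate 8 were each the highest of their group by a wide margin. Cfb, the protease precursor of the alternative convertase, stood at 7.46, 3.36 and 2.19 TPM in SW033291 muscle, at 3.13, 2.42 and 5.67 TPM in aged vehicle muscle of batch 2, at 2.07, 3.72 and 3.26 TPM in aged vehicle muscle of batch 1 and at 9.91, 8.09, 1.86 and 3.12 TPM in young muscle. For Cfb the young group held both the 2 highest libraries and the lowest. Serping1, the inhibitor, stood at 52.4, 50.1 and 25.8 TPM in SW033291 muscle, at 41.7, 41.3 and 46.2 TPM in aged vehicle muscle of batch 2, at 33.3, 55.7 and 34.5 TPM in aged vehicle muscle of batch 1 and at 78.5, 73.4, 50.5 and 52.9 TPM in young muscle. Of the young libraries, 2 lay above all aged ones, and aged vehicle batch 1 replicate 3 lay above the other 2.

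**Figure D1:**
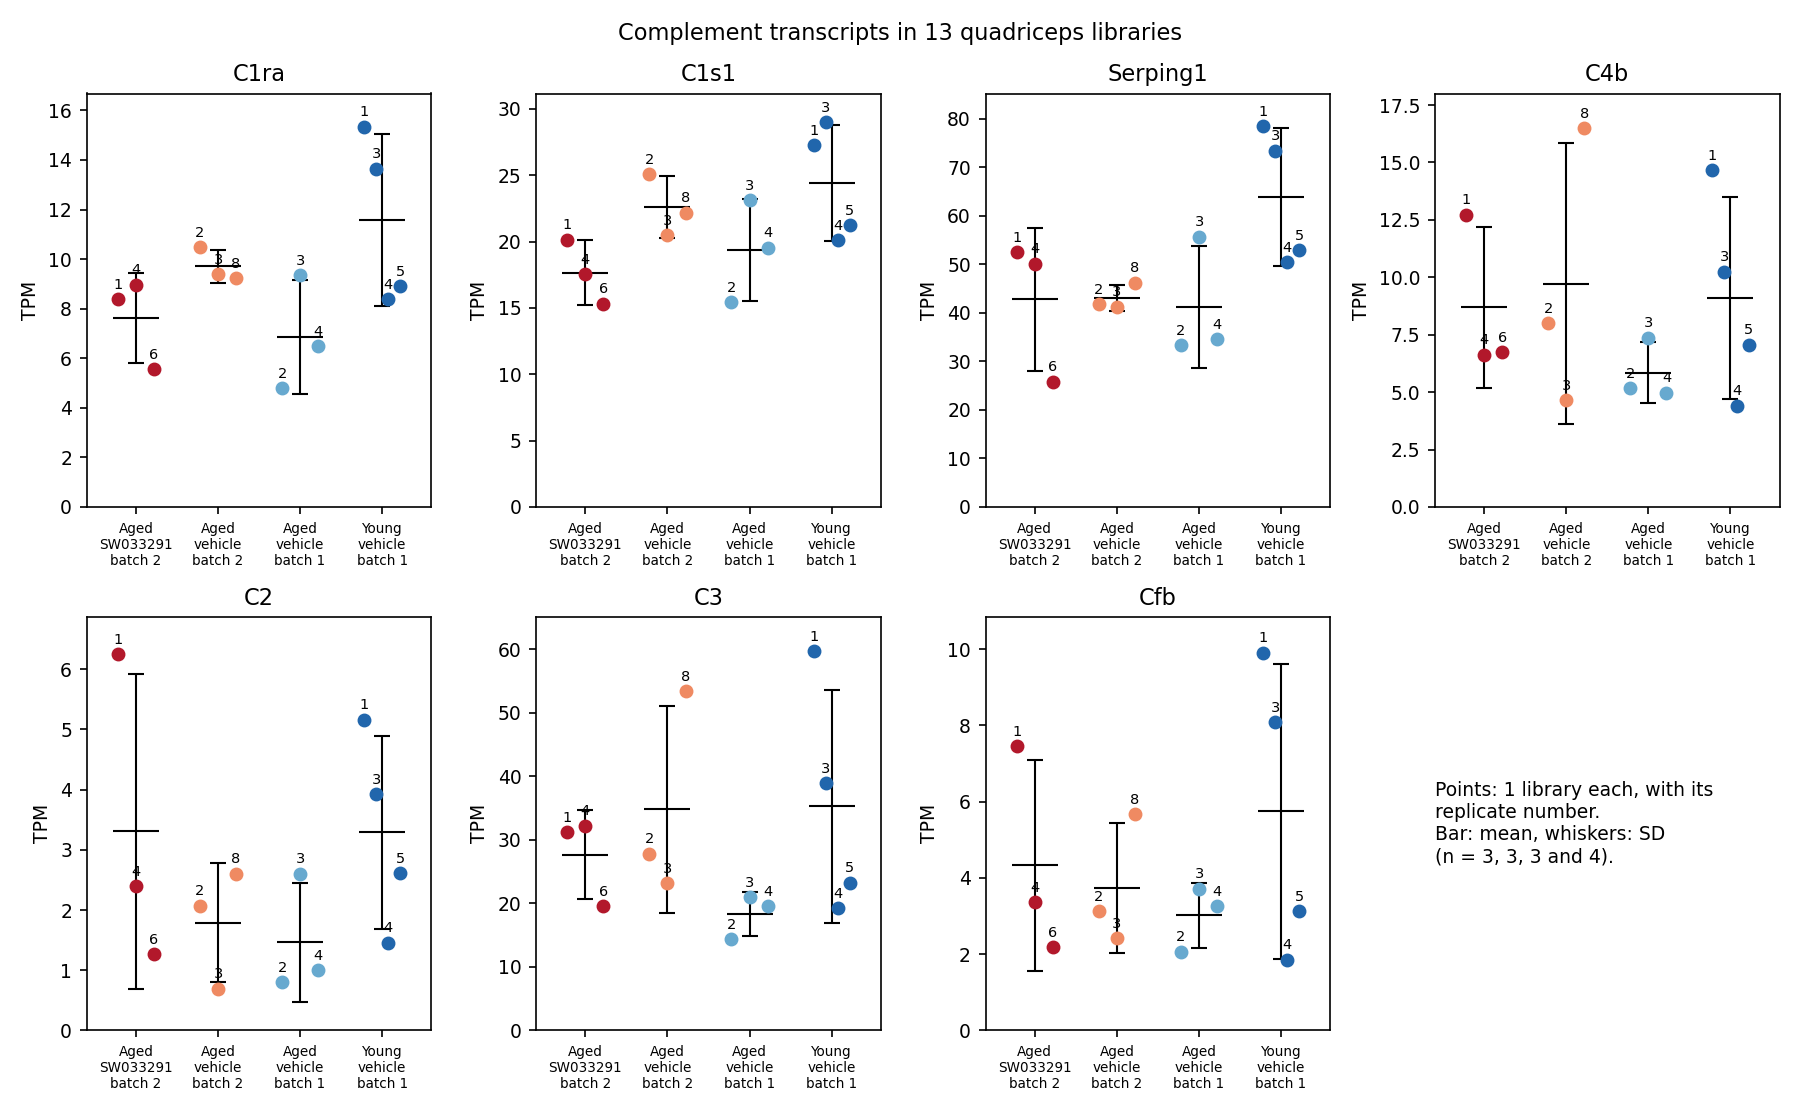
TPM (linear axes from 0) of the 7 complement genes, with 1 point for each library marked by its replicate number, the group mean as a bar and the SD as whiskers (n = 3, 3, 3 and 4 from left to right). Young replicates 1 and 3 stand above the other 2 young libraries in each panel, and aged and young vehicle muscle of batch 1 overlap in all 7.

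By mean level over the 13 libraries, Serping1 came first at 48.9 ± 14.9 TPM, then C3 at 29.5 ± 13.7, C1s1 at 21.3 ± 4.12, C1ra at 9.15 ± 2.90, C4b at 8.39 ± 3.96, Cfb at 4.33 ± 2.61 and C2 at 2.53 ± 1.69 TPM (SD over all 13). TPM are scaled to transcript length, so these levels can be set side by side. C1s1 was above C1ra, C4b above Cfb and Cfb above C2 in all 13 libraries. Serping1 was above C3 in 12 and C3 above C1s1 in 10. The neighbours C3 and C1s1, C1ra and C4b, and Cfb and C2 lay within each other's spread over libraries, with C1ra above C4b in 9 of 13 libraries.

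Aged vehicle muscle had lower mean levels than young vehicle muscle in batch 1 for all 7 genes, but none passed the test. The comparison asked how ageing changes quadriceps. C3 averaged 18.3 ± 3.48 TPM in aged and 35.3 ± 18.3 TPM in young muscle, and Serping1 41.2 ± 12.6 TPM in aged and 63.8 ± 14.2 TPM in young muscle (SD, n = 3 and 4). C1ra averaged 6.87 ± 2.30 TPM in aged and 11.6 ± 3.45 TPM in young muscle, and C1s1 19.4 ± 3.86 TPM in aged and 24.4 ± 4.38 TPM in young muscle. The groups overlapped for all 7, while 2.7% of all genes tested were lower in aged muscle with no overlap.

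With limma on log2(TPM + 1), which understates changes of low genes such as C2, the differences in aged minus young muscle were -0.79 for C3 (SE 0.35, adjusted p = 0.473), -0.67 for C1ra (SE 0.24, adjusted p = 0.298) and -0.63 for Serping1 (SE 0.25, adjusted p = 0.364). These 3 had an unadjusted p under 0.05, and across all genes 2.72% were lower at that level. The others were -0.79 for C2 (SE 0.42), -0.57 for Cfb (SE 0.45), -0.47 for C4b (SE 0.39) and -0.32 for C1s1 (SE 0.17), with limma adjusted p-values between 0.588 and 0.788. The adjusted p was under 0.05 for 0 of the 7 genes, against 0.455% of the 11876 genes tested (54 genes, 44 higher and 10 lower in aged muscle). All 7 differences were below 0, as were 38.8% of all genes, and their median was -0.63 against 0.062 over all genes. Other scalings left all 7 below 0 and divided the calls over all genes as 36 higher and 20 lower (median-of-ratios), 41 and 30 (quantile) or 35 and 28 (without the 20 most abundant genes).

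**Figure D2:**
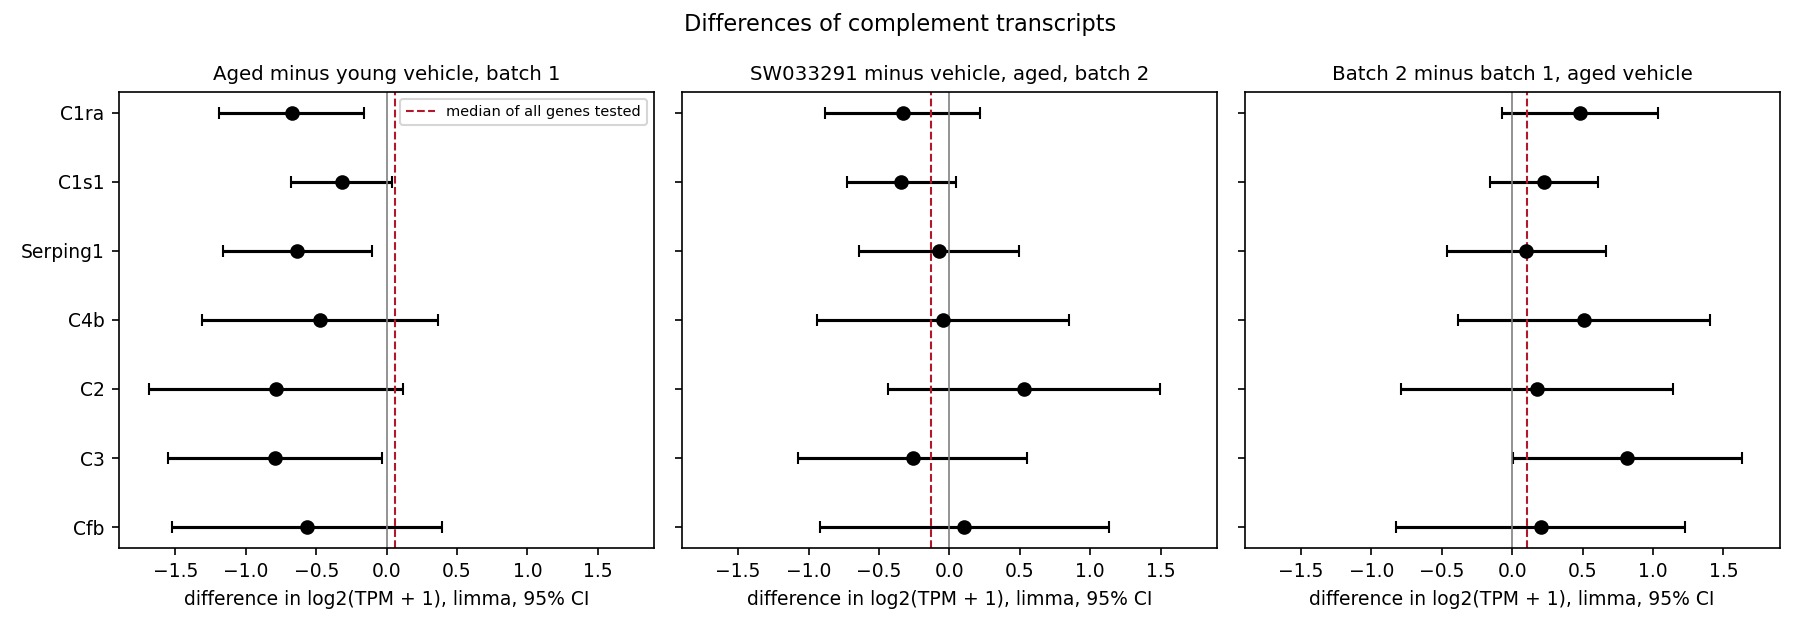
Differences in log2(TPM + 1) from limma with 95% confidence intervals (points and bars) for the 7 genes in 3 comparisons: aged minus young vehicle, SW033291 minus vehicle in aged muscle, and batch 2 minus batch 1 of aged vehicle muscle. The dashed line is the median of all 11876 genes, at 0.062, -0.13 and 0.11, and with age all 7 points lie left of it.

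The size of these differences moved with single libraries, and the median of the 7 ranged from -0.87 (without aged replicate 3) to -0.47 (without aged replicate 2) when 1 library was left out. Without aged replicate 2, C1s1 was at -0.17 and Cfb at -0.38. Without young replicate 1, C3 was at -0.50, C4b at -0.22 and Cfb at -0.27, and without young replicate 4, C4b was at -0.73 and Cfb at -0.91. Without aged replicate 4, the one with hepatocyte transcripts, the 7 genes kept differences below 0 with a median of -0.62, and 0 of 7 passed the test. Without young replicates 1 and 3 the median was -0.22 and 5 of 7 were below 0: C4b came to 0.033 and Cfb to 0.20, while C1ra was -0.33 and Serping1 -0.36. In the authors' deposited table of aged against young muscle, 2 of the 7 genes are among the 813 listed, all of which have an adjusted p of at most 0.0999. There, C1ra has a log2 fold change of -0.78 (SE 0.227, adjusted p = 0.0226), and Serping1 one of -0.71 (SE 0.183, adjusted p = 0.00692) in the authors' deposited table. With the aged vehicle libraries of both batches set against young muscle, limma gave adjusted p = 0.297 for C1ra (-0.43) and 0.150 for Serping1 (-0.58). The authors' mean levels are of normalised counts, and which libraries entered their table is not stated. The limma values are thus not a repeat of the authors' test.

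Markers of other cells are given for the same comparison, in which 38.8% of all genes were below 0 and 0.0842% passed the test as lower. Of 13 fibro-adipogenic progenitor markers, which mark the fibroblast-like cells of muscle, 12 had differences below 0 in aged muscle with a median of -0.56, and 2 passed the test in limma, both lower: the fibrillar collagen genes Col1a1 and Col3a1, named after their values were seen. The summed level of all 13 markers ranged over 487 to 849 TPM in aged and 928 to 1256 TPM in young muscle, without overlap. Of single genes, 2.7% were lower in aged muscle with no overlap. Gsn and Dcn weighed most in the sum, with means of 350 and 205 TPM over all libraries. Each of these overlapped between the groups, whereas Pi16, Fbln1, Col1a1 and Col3a1, named for this, did not. Of 5 tenocyte markers tested, 4 were below 0 and 1 (Thbs4) passed, lower in aged muscle; their sum was 71.8 to 126 TPM in aged and 183 to 255 TPM in young muscle. All 7 adipocyte markers were below 0 in aged muscle with none passing, and their sum was 1617 to 2248 TPM in aged and 1103 to 4482 TPM in young muscle. All 7 endothelial markers were below 0 with none passing, at a median of -0.22. Of 12 interferon-responsive genes, 6 were above and 6 below 0. No defining marker of the progenitors, adipocytes or endothelium was at 0 in any library. The part of these cells in the complement differences was not tested.

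SW033291 left no difference that passed the test in aged muscle of batch 2. The comparison asked what inhibition of 15-PGDH changes in aged quadriceps. C1s1 averaged 17.7 ± 2.41 TPM with SW033291 and 22.6 ± 2.33 TPM with vehicle, and C1ra 7.64 ± 1.82 TPM with SW033291 and 9.70 ± 0.67 TPM with vehicle (SD, n = 3 each). For these 2 proteases all SW033291 libraries lay below all vehicle libraries, as they did for 15.1% of all genes tested. Serping1 averaged 42.8 ± 14.8 TPM with SW033291 and 43.1 ± 2.73 TPM with vehicle, with SW033291 replicate 6 the lowest of all 13 libraries. The other 4 genes overlapped between the groups as well.

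The limma differences in SW033291 minus vehicle were -0.34 for C1s1 (SE 0.18, adjusted p = 0.525), -0.33 for C1ra (SE 0.26, adjusted p = 0.638) and -0.074 for Serping1 (SE 0.26, adjusted p = 0.926). They were -0.26 for C3 (SE 0.38), -0.047 for C4b (SE 0.42), 0.11 for Cfb (SE 0.48) and 0.53 for C2 (SE 0.45), with limma adjusted p-values between 0.668 and 0.973. By limma, 0 of the 7 genes had an adjusted p under 0.05, as did 0 of all genes (0%), while 0 of the 7 and 1221 of all genes (10.3%) had an unadjusted p under 0.05. Of the 7 genes 5 were below 0, as were 71.1% of all genes, and their median was -0.074 against -0.13 over all genes. Median-of-ratios or quantile scaling took the median of all genes to -0.0040 and -0.011 and turned C4b (0.081 and 0.12) and Serping1 (0.071 and 0.052) above 0.

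The values of C2 and Cfb moved with single libraries. Without SW033291 replicate 1, the library with many adipocyte transcripts, C2 was at 0.066 and Cfb at -0.29, while C1ra was at -0.40 and C1s1 at -0.43. Without vehicle replicate 3, C2 was at 0.20 and Cfb at -0.099, and without SW033291 replicate 6 they were at 0.90 and 0.42. Without the libraries high in neutrophil markers, the 7 genes lay between -0.45 and 0.61 (SW033291 replicate 4 left out) or between -0.37 and 0.63 (vehicle replicate 2 left out). All 7 adipocyte markers were above 0 with SW033291, with none passing, and their sum was 1523 to 3554 TPM with SW033291 and 1336 to 1528 TPM with vehicle; its part in the result was not tested. In the authors' deposited table of SW033291 against vehicle, C2 has a log2 fold change of 1.11 (SE 0.618) and the other 6 genes lie between -0.19 and 0.24. C1ra is at 0.085 and C1s1 at -0.071 in the authors' deposited table.

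Aged vehicle muscle of batch 2 was set against that of batch 1 to describe how far these genes differed between the batches. Batch cannot be told apart there from other differences between the libraries, such as their hepatocyte and neutrophil transcripts. C3 averaged 34.8 ± 16.3 TPM in batch 2 and 18.3 ± 3.48 TPM in batch 1 (SD, n = 3 each), and all libraries of batch 2 lay above all of batch 1, as for 11.9% of all genes. The limma difference of C3 in batch 2 minus batch 1 was 0.82 (SE 0.38, adjusted p = 0.273), without aged vehicle batch 2 replicate 8 it was 0.47, and without aged vehicle batch 1 replicate 4, the one with hepatocyte transcripts, it was 0.87. Without that hepatocyte-marked library the other 6 genes lay between -0.0024 (Serping1) and 0.47 (C1ra). Without aged vehicle batch 2 replicate 2, which was high in neutrophil markers, the median of the 7 was 0.27 and 0 of 7 were below 0. C3 was the 1 of the 7 with an unadjusted p under 0.05, and across all genes 13.7% were higher at that level. The other 6 genes lay between 0.10 and 0.51, so all 7 were above 0, as were 64.2% of all genes, whose median was 0.11. By limma 0 of the 7 passed, against 2.25% of all genes (267 genes, 204 higher and 63 lower; 46 and 98 with median-of-ratios scaling, 53 and 45 with quantile scaling). The age and batch comparisons share the aged vehicle libraries of batch 1, and C3 was at -0.79 in aged minus young muscle beside 0.82 in batch 2 minus batch 1. SW033291 and young muscle cannot be compared apart from the batch.

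The other complement genes showed which parts of the cascade were measurable in quadriceps. Of 45 such genes, 20 could be tested, 13 reached 1 TPM in all libraries and 19 reached it in none. The recognition protein C1q was present through C1qa, C1qb and C1qc, with means over 13 libraries of 15.6, 13.5 and 15.3 TPM, of the same order as C1s1. Cfd, the protease that activates factor B, had the highest level of all at 361 TPM, and ranged from 71.6 TPM in aged vehicle batch 2 replicate 3 to 1267 TPM in SW033291 replicate 1 and 1268 TPM in young replicate 1. Properdin (Cfp), which stabilises the alternative convertase, averaged 4.61 TPM. The lectin pathway was low: the collectin Colec12 averaged 2.70 TPM, the ficolin Fcna 2.86 TPM and Colec11 0.55 TPM.

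Of the terminal pathway, C7 averaged 4.57 TPM, C8g 3.05 TPM and C6 0.16 TPM, whereas Hc (which encodes C5), C8b and C9 were above 0 in 1 library, at 0.58, 0.12 and 0.78 TPM. That library was aged vehicle batch 1 replicate 4, the one with hepatocyte transcripts, and in all 7 of these complement genes were above 0 there and at 0 in the other 12 libraries (Mbl1, Mbl2, Hc, C8b, C9, Cfi and C4bp). The same library ranked 11th of 13 for C3 and 7th for Cfb. Among regulators, clusterin (Clu) averaged 104 TPM and vitronectin (Vtn) 12.1 TPM, and the membrane regulators Cd55, Cd59a and Cr1l averaged 47.6, 22.5 and 19.6 TPM. Receptors were low, with Itgb2 at 1.55, Itgam at 0.86 and C5ar1 at 0.77 TPM.

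**Figure D3:**
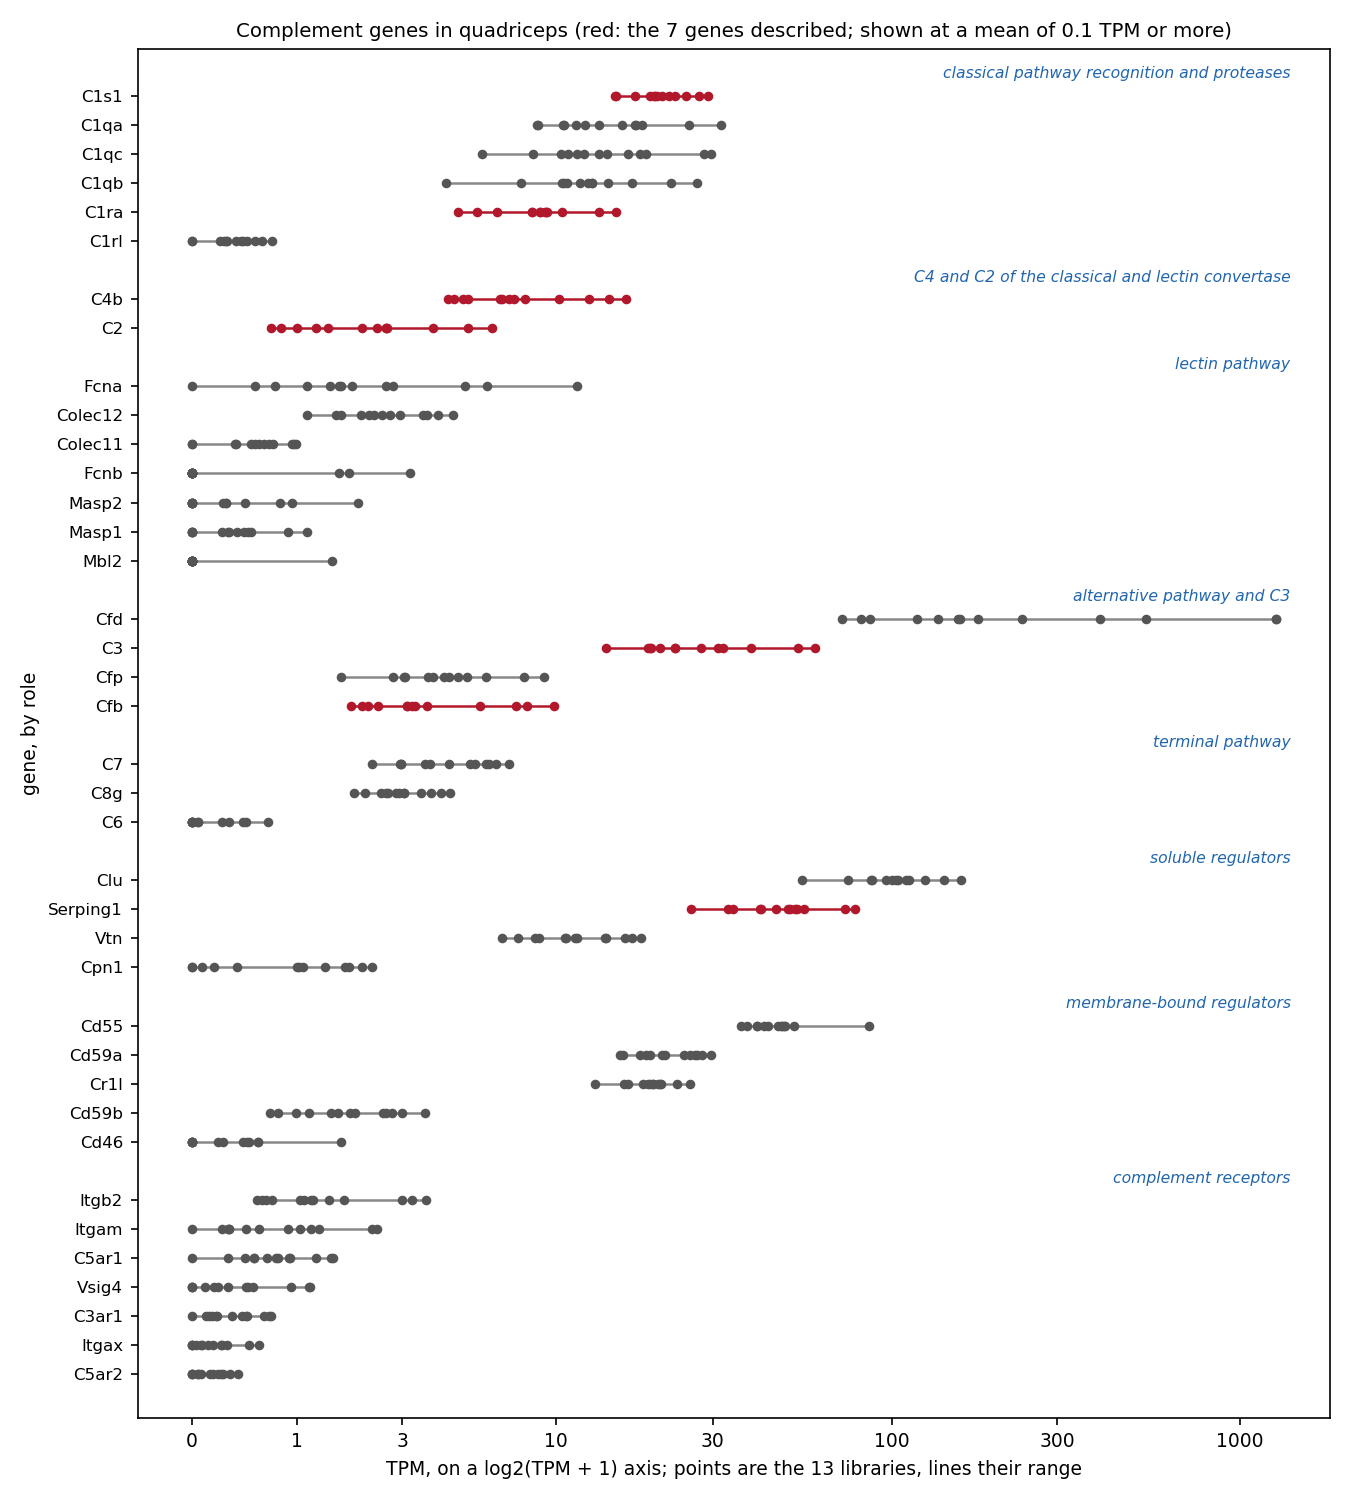
TPM on a log2(TPM + 1) axis of complement genes with a mean of at least 0.1 TPM, by role, with 1 point for each of 13 libraries and a line for their range; the 7 genes described are red. Cfd, Clu, Serping1 and Cd55 lead, and the lectin and receptor genes lie near or below 3 TPM in most libraries.

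Of the 20 other complement genes tested, 1 passed as higher and 0 as lower in aged than in young muscle by limma. Of these 20, 12 were below 0, with a median of -0.16. Over all genes 0.455% passed, 38.8% were below 0 and the median was 0.062. The 3 C1q genes were among the 12 below 0, with a median of -0.52 and limma adjusted p-values of at least 0.623. Of 8 macrophage markers tested 6 were below 0. The macrophage list summed to 37.8, 41.4 and 181 TPM in aged and to 39.5 to 88.8 TPM in young muscle. The 181 TPM was in aged vehicle batch 1 replicate 4, which was high in neutrophil markers, and Lyz2 alone was at 164 TPM there. The 1 complement gene that passed was Cpn1, the catalytic chain of carboxypeptidase N, which inactivates the small fragments released from C3, C4 and C5. Cpn1 stood at 2.07, 1.74 and 2.29 TPM in aged and at 0.16, 0.35, 0.00 and 0.07 TPM in young muscle of batch 1, with no overlap between the groups, as for 8.85% of all genes in that direction. Its limma difference was 1.41 (SE 0.25, adjusted p = 0.0283), and the call ended when any 1 library of these groups other than young replicate 3 was left out (1.35 to 1.48, adjusted p from 0.0538 to 0.0976). In batch 2 Cpn1 stood at 1.03, 1.00 and 0.00 TPM with SW033291 and at 1.81, 1.40 and 1.08 TPM with vehicle. In the authors' deposited table Cpn1 has a log2 fold change of 3.55 with age (adjusted p = 1.37e-05). With SW033291 0 of the 20 passed, against 0% of all genes, and 16 were below 0, against 71.1% of all genes. Between batches 0 of the 20 passed, against 2.25% of all genes, and 11 were above 0, against 64.2% of all genes.

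The inhibitor was set against its targets as the ratio of Serping1 to C1ra plus C1s1. The ratio was 1.84, 1.89 and 1.24 in SW033291 muscle and 1.17, 1.38 and 1.47 in aged vehicle muscle of batch 2, which overlapped. It was 1.65, 1.71 and 1.33 in aged vehicle muscle of batch 1 and 1.84, 1.72, 1.77 and 1.76 in young muscle. The 4 young libraries lay close together, at 1.77 ± 0.05 (SD, n = 4), although their Serping1 levels differed from 50.5 to 78.5 TPM. In batch 1 all aged vehicle libraries lay below all 4 young ones, the nearest by little (1.71 against 1.72). The aged vehicle libraries of batch 2 lay below the young ones as well, but there age cannot be told apart from batch. No test was made of the ratio, and how often other gene ratios separate in this way was not computed. C1s1 over C1ra was 1.96 to 2.76 in SW033291 muscle, 2.18 to 2.40 in aged vehicle muscle of batch 2, 2.48 to 3.21 in aged vehicle muscle of batch 1 and 1.78 to 2.40 in young muscle. Aged vehicle muscle thus lay above young muscle in this ratio in batch 1, while that of batch 2 was at the level of the higher young libraries.

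**Figure D4:**
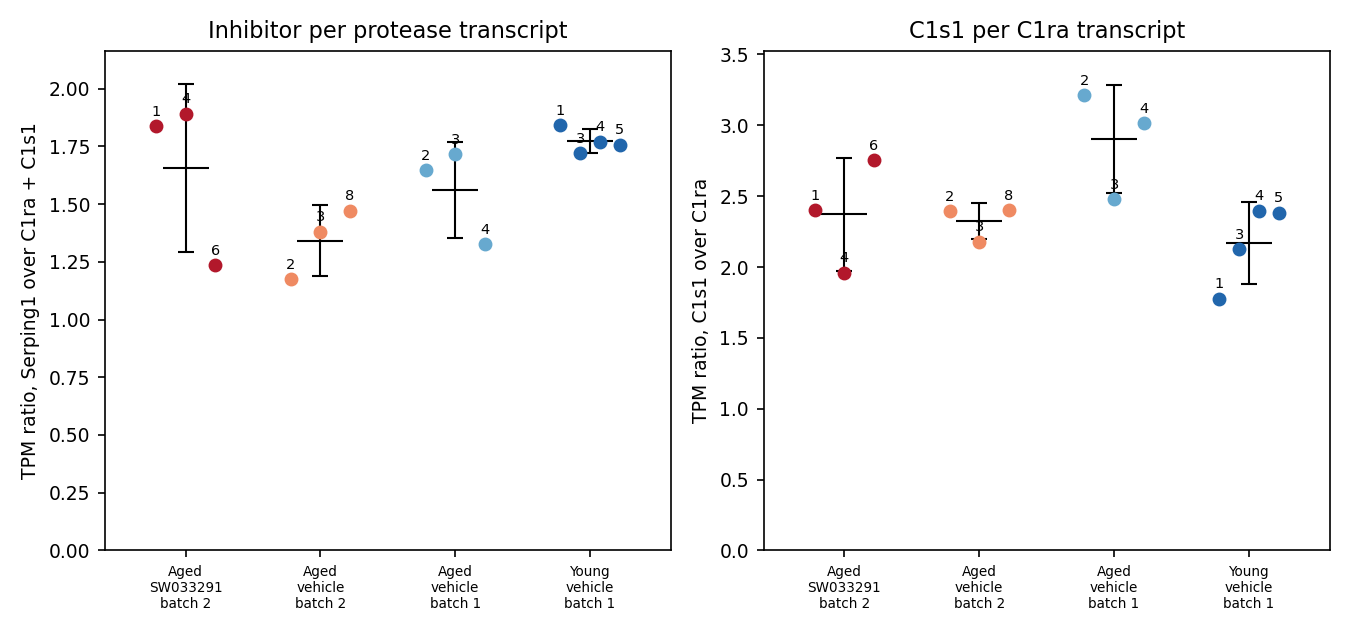
Ratio of TPM of Serping1 to C1ra plus C1s1 (left) and of C1s1 to C1ra (right), linear axes from 0, with 1 point for each library marked by replicate number, means as bars and SD as whiskers (n = 3, 3, 3 and 4). The young libraries cluster at 1.72 to 1.84 in the left panel.

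Across libraries the 7 genes varied together, more closely in some pairs than in others. The correlations below are over 13 libraries that share batches and groups, on log2(TPM + 1), and are given as description over the 21 pairs of the 7 genes and the 3 nearest genes of each. Among C1ra, C1s1 and Serping1, Pearson's r was 0.80 to 0.91, and 0.64 to 0.85 without young replicates 1 and 3. Among C2, C3, C4b and Cfb it was 0.72 to 0.87, and 0.58 to 0.87 without them. Between the 2 sets it was 0.53 to 0.78, and 0.30 to 0.64 without them. Within the 7 libraries of batch 1, r was 0.93 to 0.98 in the first set, 0.88 to 0.95 in the second and 0.80 to 0.97 between them. Within the 6 of batch 2 it was 0.52 to 0.86 in the first, 0.49 to 0.91 in the second and 0.12 to 0.70 between them. In each batch the ranges within and between the sets overlapped, and the sets were drawn after these values were seen.

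The 3 tested genes most like each of the 7 differed between the sets. Those of C1s1 were Nid1, which encodes the basement membrane protein nidogen (r = 0.93), C1ra (0.91) and the laminin gene Lama4 (0.91). Those of C1ra were the guidance ligand Slit3 (0.95), the metalloprotease inhibitor Timp2 (0.93) and Smo, the transducer of Hedgehog signals (0.93). Those of Serping1 were the gelatinase Mmp2, the thrombospondin Thbs3 and the glycosyltransferase Galnt16, all at 0.92. For Cfb they were the mitochondrial citrate carrier Slc25a1 (0.95), ATP citrate lyase Acly (0.95) and the dicarboxylate carrier Slc25a10 (0.95), and for C2 again Slc25a1 (0.92), fatty acid synthase Fasn (0.91) and the lipogenic gene Thrsp (0.89). For C4b they were the nuclear receptor Esrra (0.91), the lipolysis inhibitor G0s2 (0.90) and Crtap (0.88), and for C3 they were C4b (0.87), Dact2 (0.86) and pyruvate carboxylase Pcx (0.86).

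Most of these likenesses were present without the high young libraries, but SW033291 replicate 1 stayed in these values. Slc25a1 was at 29.4 TPM there, with 7.16 TPM the next highest of the libraries kept. Fasn was at 52.4 TPM there, with 11.2 TPM the next highest. The values of C2 and Cfb without young replicates 1 and 3 may thus rest on that library. Batch 1 does not hold that library but holds young replicates 1 and 3. Within its 7 libraries, r was 0.98 for Cfb and Slc25a1 and 0.91 for C2 and Fasn. A value of r without all 3 high libraries was not computed. Without young replicates 1 and 3, Cfb and Slc25a1 had r = 0.90, C2 and Fasn 0.88, C1ra and Slit3 0.90 and Serping1 and Mmp2 0.97, while C3 and Dact2 had 0.76. The adipocyte markers summed highest in 3 libraries (SW033291 replicate 1 and young replicates 1 and 3), which were also the 3 highest for C2 and for Cfb. Aged vehicle batch 2 replicate 8, high for C3 and C4b, had an adipocyte sum of 1336 TPM, the lowest of the vehicle libraries of its batch, but 4 of the 7 markers (Retn, Adipoq, Cidec and Plin1) were higher there than in the other two. The sum is carried by Car3 and Fabp4, and in that library Adipoq was at 24.0 TPM, against 13.8 and 10.2 TPM in replicates 2 and 3. Cfd was at 237 TPM in replicate 8, against 81.3 and 71.6 TPM in replicates 2 and 3. The part of adipocytes in these patterns was not tested.

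**Figure D5:**
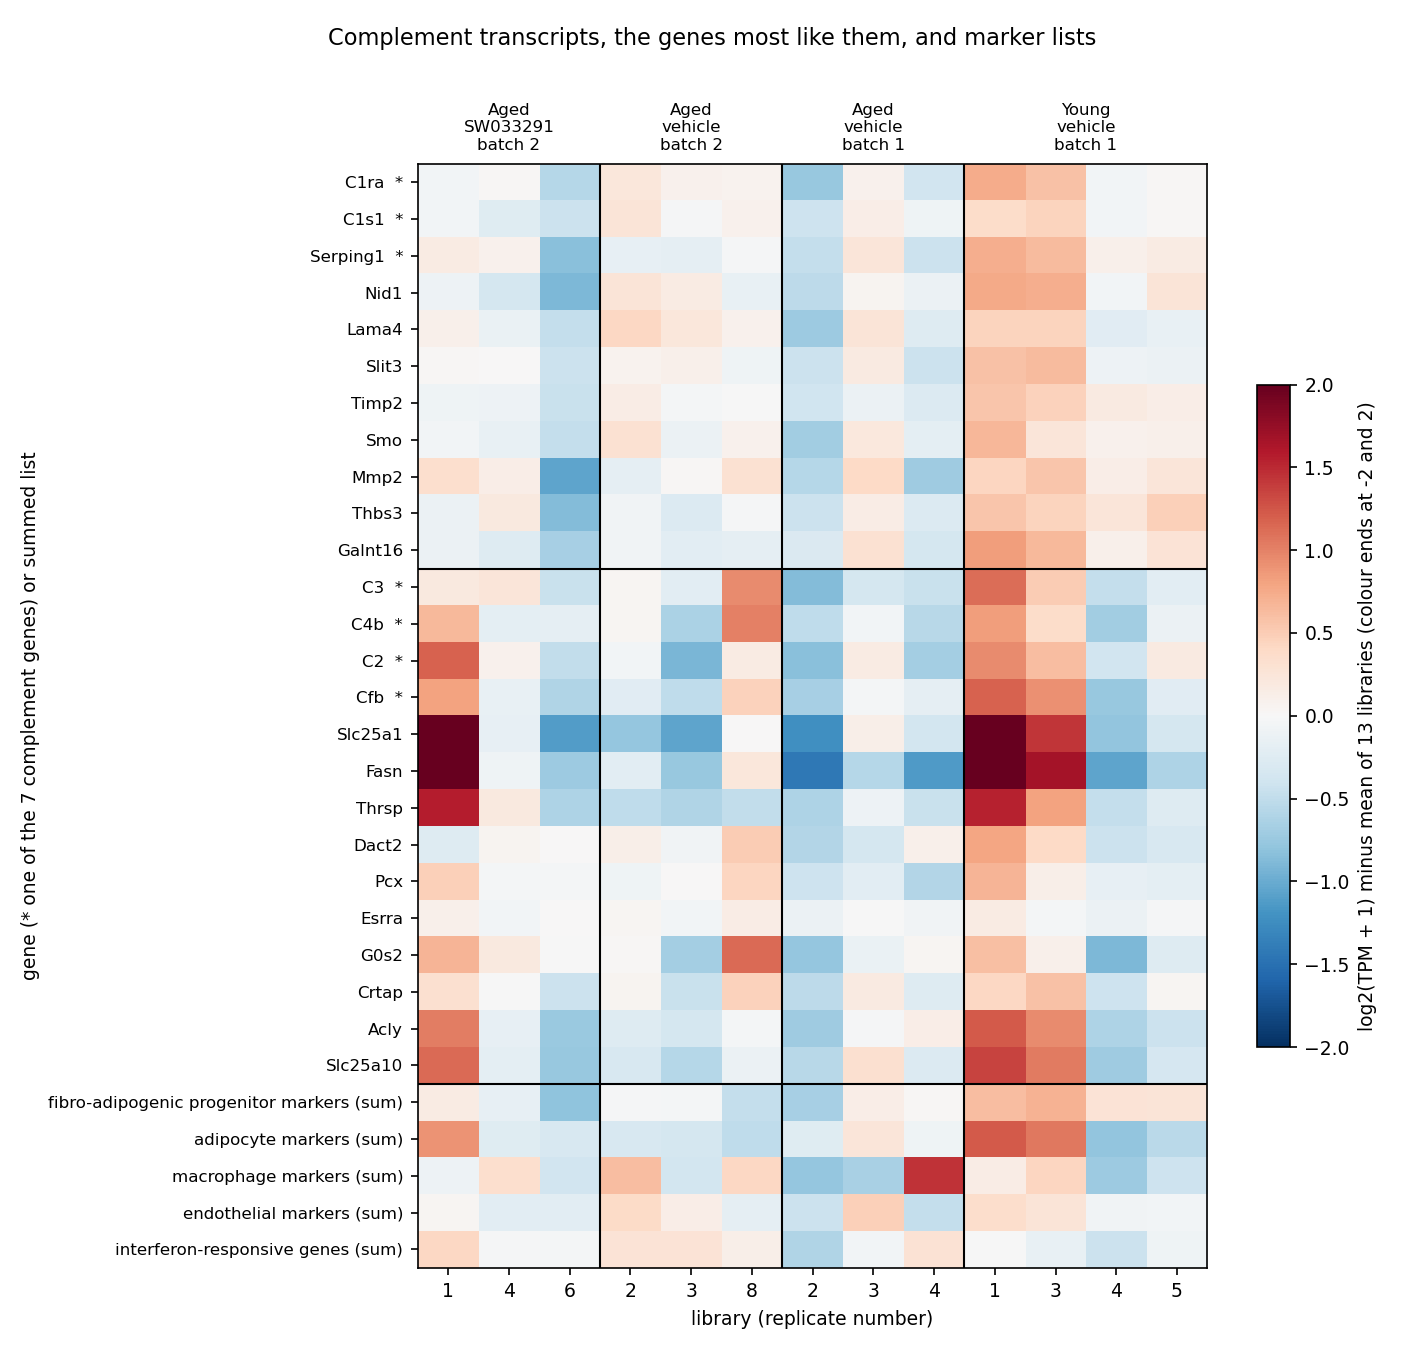
Heat map of log2(TPM + 1) minus the mean of 13 libraries for the 7 complement genes (starred), the genes most like them and 5 summed marker lists (rows), by library (columns, grouped, with replicate numbers); colours end at -2 and 2. SW033291 replicate 1 and young replicates 1 and 3 are high for C2, Cfb and the genes nearest to them, and young replicates 1 and 3 for all 7 genes.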

How the data were processed

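The 13 libraries of quadriceps RNA were made with the TruSeq RNA kit v2, per the labels' protocols. The submitters' processing notes name mm9 as build and the tools RSEM, STAR, DESeq and DESeq2; the sources used here give no versions, order or annotation. A table of TPM was deposited by the authors for 24015 genes. Per the file headers, their 2 comparison tables hold log2 fold changes with standard errors, p-values, a test statistic (a score per gene) and a mean level, a signal of normalised counts.

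The names of the deposited TPM table stood in another order than its values. After 27 names turned into dates were restored, all names were sorted in byte order and assigned to the rows as they stood; mean TPM then had a Spearman correlation of 0.960 with the authors' deposited levels of SW033291 against vehicle, against -0.0174 before. Every value rests on this order.

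A linear model in limma 3.58.1 (R 4.3.3) on log2(TPM + 1) had 1 coefficient per group over all 13 libraries, a variance trend, a filter of 1 TPM in 3 or more libraries (11876 genes), two-sided tests and Benjamini-Hochberg adjustment at 0.05 in each comparison. The fit was tested on simulated data. TPM keep no read depth, so counting error is unknown and no intervals for counting were made. Batches are those the labels name. The genes named were the 7, the 3 genes of highest mean TPM in each complement role, any complement gene past the threshold, the 3 genes most like each of the 7 and the 2 highest of each marker list, with exceptions stated; the 7 genes, lists and tests were chosen with earlier results of these data known. Some complement genes are not reported here and are not among those counted. Alternatives were pseudocounts, filters, scalings, leaving out libraries, a replicate block and other fits.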

Additional observations from a re-analysis of the deposited data

How the results depend on the processing

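By limma 0 of the 7 genes passed the threshold in each of the 3 comparisons under every alternative run, where C2 did not pass the filter of 5 TPM. The calls over all genes were less steady. With age (54) they were 27 with no filter, 24 with only the 2 groups fitted, 31 with no variance trend, 297 with aged vehicle of both batches, 8 without young replicates 1 and 3 (an alternative chosen after seeing the data) and 19 to 94 when 1 library was left out. With SW033291 (0) they were 4 at a pseudocount of 0.1, 1 with no variance trend and 0 to 1 when 1 library was left out. Between batches (267) they were 144 with median-of-ratios and 98 with quantile scaling, 1 with only the 2 groups fitted, 112 with no variance trend and 18 to 1647 when 1 library was left out, the highest without aged vehicle batch 1 replicate 4.

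The cause of these changes, which went both up and down when 1 library was left out, was not tested. Fits on fewer libraries or groups also have fewer residual degrees of freedom. Differences that turned their sign were, with age and without young replicates 1 and 3, C4b at 0.033 and Cfb at 0.20; with SW033291 under median-of-ratios and quantile scaling, C4b at 0.081 and 0.12 and Serping1 at 0.071 and 0.052; and between batches under median-of-ratios scaling, Serping1 at -0.039. When 1 library was left out, the SW033291 differences that turned in some fits ranged from -0.50 to 0.087 for C3, -0.43 to 0.38 for C4b, -0.29 to 0.42 for Cfb and -0.25 to 0.25 for Serping1. Those between batches ranged from -0.044 to 0.50 for C2, -0.073 to 0.41 for Cfb and -0.028 to 0.34 for Serping1. The Cpn1 call with age also ended in limma at a pseudocount of 0.1 (adjusted p = 0.0839), without young replicates 1 and 3 (1.55, adjusted p = 0.140) and with the replicate number as a block (1.37, adjusted p = 0.858).

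Replicate numbers were shared by 2 pairs with age and 2 between batches, and by none with SW033291, where no paired analysis was possible because the numbers differ. Deviations of same-numbered libraries had correlations of 0.17 and 0.04 with age and -0.15 and -0.06 between batches, so the numbers were not taken to pair libraries. With the number as a block the calls were 6 with age and 905 between batches, and between batches C2 was at -0.16, C4b at -0.010, Cfb at -0.018 and Serping1 at -0.053. The 95% intervals with age, not adjusted for the number of genes, ran from -1.69 to 0.12 for C2 and from -1.52 to 0.39 for Cfb. These differences could not be told from 0 with 3 and 4 libraries, and depth is not known. The intervals of C4b and C1s1 held 0 as well. Those of C3 (-1.55 to -0.033), C1ra (-1.19 to -0.16) and Serping1 (-1.16 to -0.10) did not, though none of these genes passed after adjustment.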
